A study of Mus musculus with 12 samples.

Results

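The genes described here are 33 antioxidant and NADPH oxidase genes, named in a list and matched by symbol to the 55487 genes of each deposited expression table. They make and remove reactive oxygen species in mouse LSK cells, the bone marrow cells that lack lineage markers and carry Sca1 and c-Kit, a fraction enriched for blood stem cells and multipotent progenitors. All 33 had enough reads in the 12 libraries to be tested. They fall into 7 roles: superoxide dismutases and catalase, glutathione peroxidases, peroxiredoxins with sulfiredoxin, thioredoxins with their reductases and glutaredoxin, glutathione synthesis and use, the NRF2 system, and the phagocyte NADPH oxidase.

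RNA was sequenced from LSK cells sorted from the marrow of mice labelled Yy1-/-, Yy1-/- Smc3+/- and Yy1+/+, with 4 libraries for each genotype. Yy1 encodes the zinc finger transcription factor Yin Yang 1, Smc3 is part of cohesin, the ring-shaped complex that holds DNA loops, and the Yy1+/+ mice were the wild-type control. No treatment is labelled. The labels give no age, sex, Cre driver, day or number of animals a library, so the p-values below measure the spread between these libraries, which may be partly technical.

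Superoxide is produced as a by-product of mitochondrial respiration and on purpose by the phagocyte NADPH oxidase, which passes electrons from NADPH to oxygen. Superoxide dismutases turn it into hydrogen peroxide, and catalase, glutathione peroxidases and peroxiredoxins remove the peroxide, the last with electrons that NADPH supplies through thioredoxin. The transcription factor NRF2 switches on many of these genes when its inhibitor KEAP1 lets it go, and it binds a short DNA motif, the antioxidant response element. In the marrow, low levels of reactive oxygen species are a known property of quiescent stem cells.

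The DNA around the starts of these genes is shown because NRF2 and YY1 both act through short motifs there. RefSeq windows of 300 bases, from 250 before to 50 after an annotated start on GRCm38.p6, were matched for 27 of the 33 genes. Gsr, Prdx6, Gclc, Ncf4, Hmox1 and Rac2 were not matched. The core of the antioxidant response element, TGACNNNGC or its reverse GCNNNGTCA, was found in 6 of the 34 matched windows (17.6%), against 12.4% of all 32851 windows. An element bound by YY1, AANATGGC or its reverse GCCATNTT, was found in 1 of the 34 windows (2.94%), that of Gpx1, against 6.05% of all windows. The stretches below run 5′ to 3′ on the strand of the gene, with the matched letters in capitals, and a match is a description of the letters, not a site of binding.
Prdx1, chr4:116685441-116685499, + strand: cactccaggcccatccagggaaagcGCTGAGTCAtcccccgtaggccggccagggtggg
Sod1, chr16:90220681-90220739, + strand: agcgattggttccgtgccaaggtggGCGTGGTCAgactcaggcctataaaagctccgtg
Gclm, chr3:122245398-122245456, + strand: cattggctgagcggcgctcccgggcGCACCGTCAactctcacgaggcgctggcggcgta
Nfe2l2, chr2:75704870-75704913, - strand: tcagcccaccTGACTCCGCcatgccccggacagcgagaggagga
Txnrd1, chr10:82859104-82859132, + strand: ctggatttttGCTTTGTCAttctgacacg
Srxn1, chr2:152105542-152105570, + strand: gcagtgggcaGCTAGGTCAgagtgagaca
Gpx1 (YY1 element), chr9:108338957-108338984, + strand: attgccagagGCCATCTTcctaggcggg
The 6 genes with the NRF2 core did not share a direction. Prdx1 and Sod1 rose in both mutant genotypes, Gclm fell in both, and Nfe2l2, Txnrd1 and Srxn1 were not called in either.

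Levels can be compared between genes on the deposited TPM scale, which takes transcript length into account. Gpx1 stood first in the mean over all 12 libraries, at 4583 ± 615 TPM in Yy1-/- and 4448 ± 459 in Yy1-/- Smc3+/-, against 4252 ± 486 in Yy1+/+ (SD, n = 4 each). Gstp1, Cyba, Gpx4, Prdx1 and Txn1 followed, with genotype means between 385 and 858 TPM. The neighbours in this order overlapped within their spread in at least some genotypes: Gpx4 and Prdx1 stood at 657 ± 65.5 and 662 ± 112 TPM in Yy1-/-, and at 574 ± 48.5 and 417 ± 48.0 TPM in Yy1+/+. At the low end, Nqo1 stood at 4.61 ± 1.97 TPM in Yy1-/- and 4.51 ± 0.869 in Yy1-/- Smc3+/-, against 15.9 ± 1.69 in Yy1+/+. The order also differed by genotype: Prdx6 was above Prdx1 in the mean of Yy1+/+ (482 against 417 TPM), while in Yy1-/- it stood at 235 TPM beside 662 TPM of Prdx1.

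**Figure D1:**
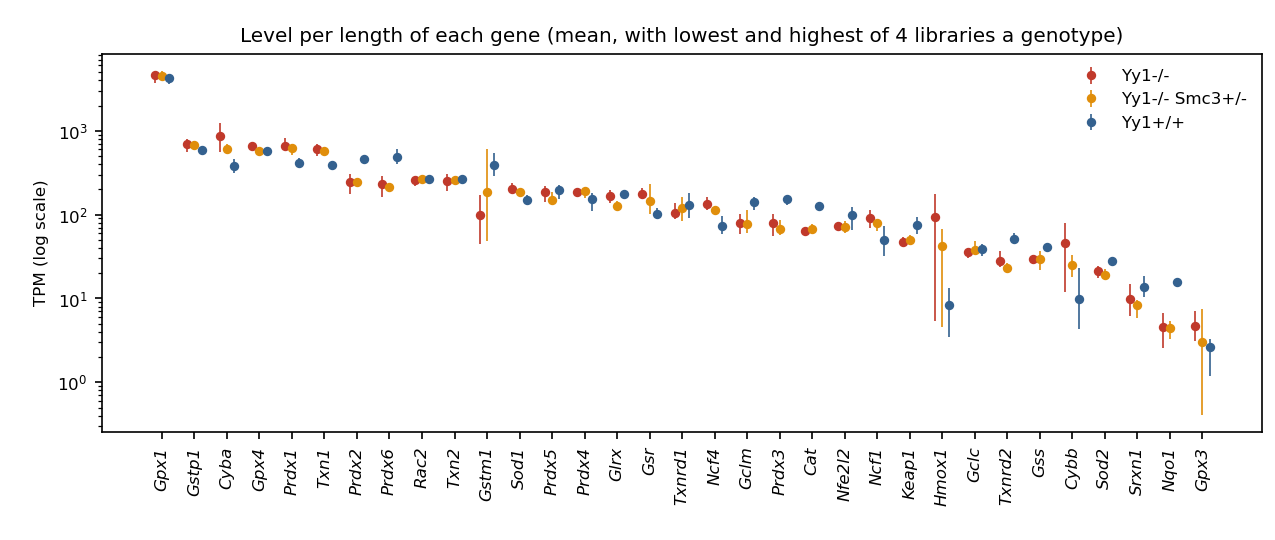
Level of each of the 33 genes in TPM (log scale), ordered by the mean over all 12 libraries. Points are means of the 4 libraries of a genotype and bars run from the lowest to the highest library. Gpx1 stands above the rest, and the bars of Hmox1 in Yy1-/- and of Gpx3, Hmox1 and Gstm1 in Yy1-/- Smc3+/- are long.

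In Yy1-/- cells 20 of the 33 genes changed, 12 upward and 8 downward, at an edgeR adjusted p under 0.05. Of all 16649 genes tested, 35.2% were called, 16.3% upward and 18.8% downward. In Yy1-/- Smc3+/- cells 15 of the 33 changed, 7 upward and 8 downward, against 29.9% of all genes, 13.1% upward and 16.7% downward. The libraries did not overlap with those of Yy1+/+ for 20 of the 33 genes in Yy1-/- (30.9% of all genes) and for 15 in Yy1-/- Smc3+/- (32.2% of all genes). The median log2 fold change of the 33 was 0.19 in Yy1-/- and 0.14 in Yy1-/- Smc3+/-, and that of all genes was 0.0058 and 0.020. These counts depend on the scale for the upward side. With limma on log2(TPM + 1), where the median of all genes lay at -0.18 in Yy1-/- and -0.11 in Yy1-/- Smc3+/-, the members split into 8 upward and 10 downward in Yy1-/- and into 5 upward and 11 downward in Yy1-/- Smc3+/-. On that scale 25.04% of all called genes were upward in Yy1-/-, against 46.5% on the count scale, and 27.2% against 44.0% in Yy1-/- Smc3+/-.

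The calls of the 2 mutant genotypes use the same 4 Yy1+/+ libraries. With that said, 15 genes were called in both and in the same direction. Cyba, Gstp1, Ncf1, Ncf4, Prdx1, Sod1 and Txn1 were higher, and Cat, Gclm, Keap1, Nqo1, Prdx2, Prdx3, Prdx6 and Txnrd2 were lower. Cybb, Gpx4, Gsr, Hmox1 and Prdx4 were called in Yy1-/- alone, and 13 genes were called in neither.

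**Figure D2:**
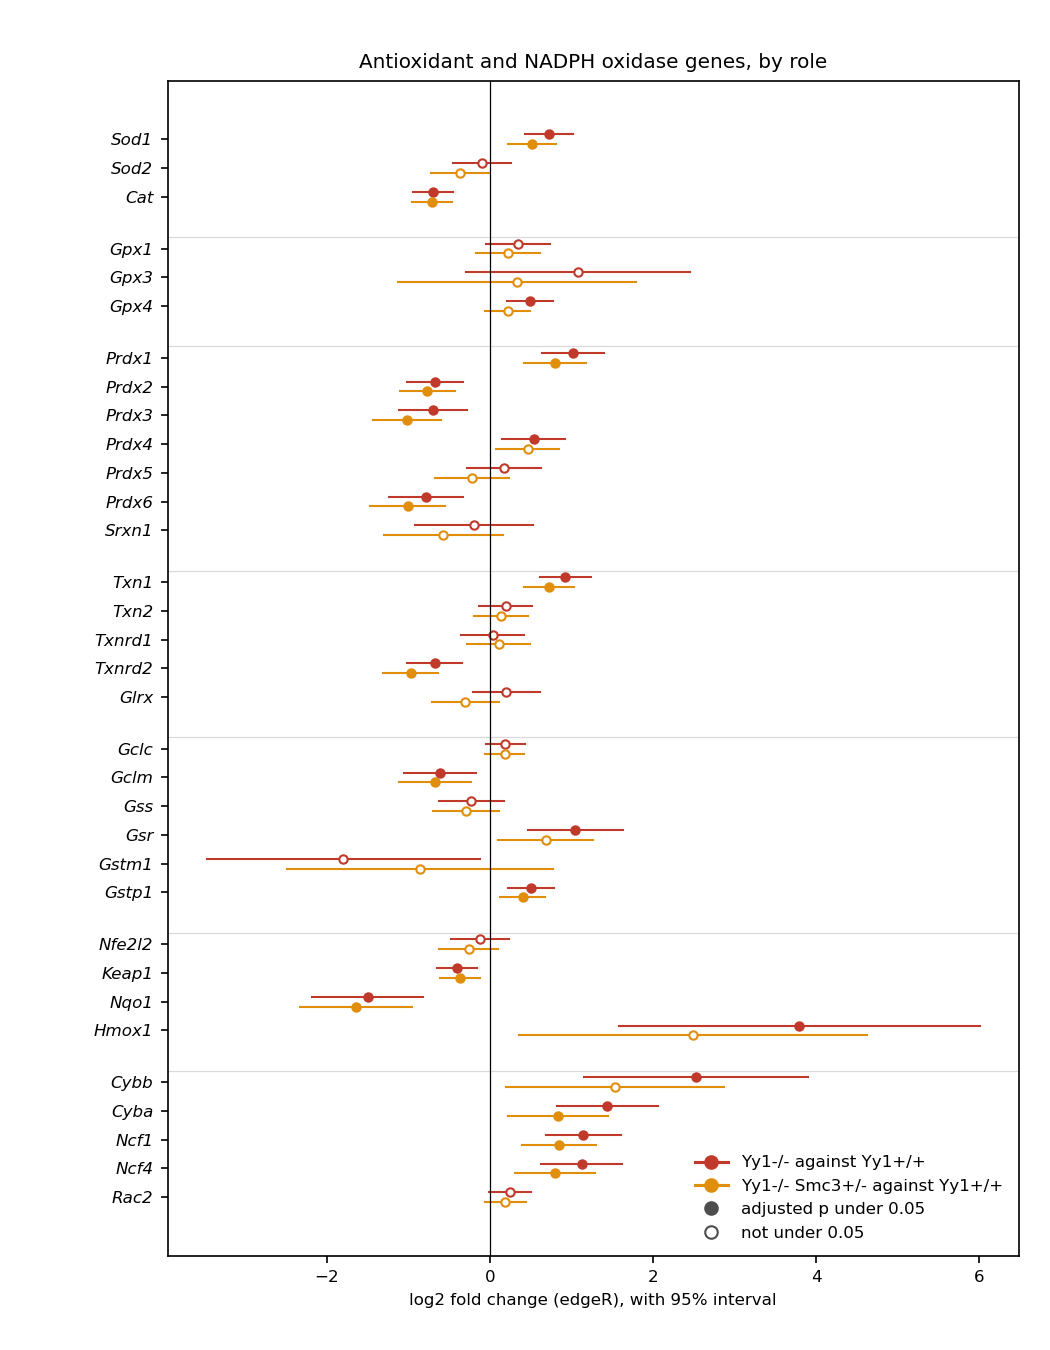
Log2 fold change of each gene against Yy1+/+, grouped by role, with the 95% interval of the edgeR model, for Yy1-/- (red) and Yy1-/- Smc3+/- (orange). Filled points have an adjusted p under 0.05, and the 12 upward and 8 downward calls in Yy1-/- lie on either side of the line at 0.

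Some facts of the libraries touch these results. Summed expected counts ran from 38671354 to 69086104 a library. Levels are given below as CPM, which are counts scaled for library size with TMM factors and not for length. Yy1 stood at 0.407, 0.996, 5.01 and 12.2 CPM in Yy1-/- and at 0.772, 0.795, 4.45 and 0.944 CPM in Yy1-/- Smc3+/-, against 33.9 to 41.3 CPM in Yy1+/+, so Yy1-/- replicates 3 and 4 and Yy1-/- Smc3+/- replicate 3 kept the most Yy1 reads. Smc3 ran from 254 to 344 CPM in the libraries labelled Yy1-/- Smc3+/-, from 200 to 306 CPM in Yy1-/- and from 160 to 214 CPM in Yy1+/+, so its total count does not bear out the label Smc3+/-, and it cannot tell whether 1 allele was deleted. The summed level of 7 markers of the sorted cells and their subsets was 1867 to 2152 CPM in Yy1-/- and 1888 to 2168 CPM in Yy1-/- Smc3+/-, against 2245 to 2779 CPM in Yy1+/+. In Yy1-/- 4 of the 7 were called downward and 1 upward, against 18.8% and 16.3% of all genes. In Yy1-/- Smc3+/- 3 were called downward and 1 upward, against 16.7% and 13.1% of all genes. Kit and the stem cell markers Procr and Slamf1 were lower in both, with log2 fold changes of -2.12, -2.09 and -2.27 in Yy1-/- and -1.65, -2.46 and -2.18 in Yy1-/- Smc3+/-. Cd48, a marker of more mature progenitors, was higher, by 1.75 and 1.42, and Flt3 was called downward in Yy1-/- at -0.59. Of these, Procr, Slamf1 and Cd48 are named after their values were seen, and for Kit, Procr, Slamf1 and Cd48 the mutant libraries did not overlap with Yy1+/+. Ly6a, which encodes Sca1, was not called, and neither was Cd34, which stood at 942 to 1158 CPM in Yy1-/- and 904 to 1002 CPM in Yy1-/- Smc3+/-, against 892 to 1039 CPM in Yy1+/+. The summed level of 12 monocyte and macrophage markers was 6895, 4684, 689 and 1067 CPM in Yy1-/- and 886 to 1647 CPM in Yy1-/- Smc3+/-, against 598 to 1442 CPM in Yy1+/+, so Yy1-/- replicates 1 and 2 stand apart. The sum of 6 T cell markers was 7.39 to 28.0 CPM in Yy1-/- and 8.67 to 30.3 CPM in Yy1-/- Smc3+/-, against 2.43 to 3.90 CPM in Yy1+/+. The sum of 6 B cell markers was between 44.2 and 86.0 CPM in all libraries, though single markers differed. Of the 5 tested, 2 were called upward in Yy1-/- Smc3+/- (13.1% of all genes), none was called downward, and none was called in Yy1-/-. Their log2 fold changes in Yy1-/- Smc3+/- ran from -0.36 to 2.76. In bulk samples, fewer cells of a type and less RNA per cell cannot be told apart.

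Among the dismutases and catalase, Sod1 rose and Cat fell in both mutant genotypes. Sod1, the copper and zinc superoxide dismutase of the cytosol, lies on chromosome 16 from 90220754 to 90226329. It stood at 63.3, 51.1, 69.6 and 52.5 CPM in Yy1-/- and at 53.1, 46.9, 52.9 and 52.2 CPM in Yy1-/- Smc3+/-, against 31.8, 36.7, 35.0 and 39.8 CPM in Yy1+/+. Every mutant library lay above every Yy1+/+ library. Sod1 had a log2 fold change of 0.72 ± 0.14 (SE, adjusted p = 0.00157 by edgeR) in Yy1-/- and 0.52 ± 0.14 (adjusted p = 0.0130) in Yy1-/- Smc3+/-. Under limma on log2(TPM + 1) the second of these was 0.31 with an adjusted p of 0.0554.

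Cat encodes catalase, the peroxisomal enzyme that splits hydrogen peroxide without using NADPH, and lies on chromosome 2 from 103453849 to 103485160. It stood at 143, 133, 129.9 and 111 CPM in Yy1-/- and at 133, 136, 119 and 122 CPM in Yy1-/- Smc3+/-, against 189.7, 223, 200.3 and 224 CPM in Yy1+/+. The mutant levels were close to each other in all 8 libraries and below all 4 of Yy1+/+. Its log2 fold change was -0.69 ± 0.11 (adjusted p = 0.000598 by edgeR) in Yy1-/- and -0.71 ± 0.11 (adjusted p = 0.000558) in Yy1-/- Smc3+/-. Cat was called under every alternative tried in both comparisons. Sod2, the manganese dismutase of mitochondria, ran from 85.3 to 134 CPM in Yy1-/- and from 76.2 to 109 CPM in Yy1-/- Smc3+/-, against 99.2 to 130.0 CPM in Yy1+/+, and these ranges overlap. The fitted log2 fold change was -0.10 ± 0.16 (adjusted p = 0.673) in Yy1-/- and -0.37 ± 0.16 (adjusted p = 0.105) in Yy1-/- Smc3+/-. Without Yy1-/- Smc3+/- replicate 3 the value of Sod2 in Yy1-/- Smc3+/- was -0.50 with an adjusted p of 0.0427, and without Yy1-/- replicate 1 it was -0.41 with an adjusted p of 0.0450.

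Among the 3 glutathione peroxidases only Gpx4 was called, and only in Yy1-/-. Gpx4 reduces lipid hydroperoxides inside membranes and so guards against ferroptosis. It stood at 374, 286, 381 and 304 CPM in Yy1-/- and at 298, 240.2, 304 and 268 CPM in Yy1-/- Smc3+/-, against 233, 254, 214 and 254 CPM in Yy1+/+. All Yy1-/- libraries lay above Yy1+/+, while the Yy1-/- Smc3+/- libraries overlapped with them. Its log2 fold change was 0.49 ± 0.13 (adjusted p = 0.0100 by edgeR) in Yy1-/- and 0.22 ± 0.13 (adjusted p = 0.226) in Yy1-/- Smc3+/-, and the call in Yy1-/- ended on log2(TPM + 1), where the value was 0.19 with an adjusted p of 0.167. Reads of Gpx4 are shared with a processed copy, Gpx4-ps2, at 12.7 to 23.4 CPM, and its expected counts were fractional in all 12 libraries.

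Gpx1, the abundant cytosolic and mitochondrial selenoenzyme, ran from 2115 to 3168 CPM in Yy1-/- and from 2194 to 2977 CPM in Yy1-/- Smc3+/-, against 1620 to 2829 CPM in Yy1+/+. The groups overlapped through Yy1+/+ replicate 2, the highest of its genotype. The log2 fold changes of Gpx1 were 0.35 ± 0.18 (adjusted p = 0.158 by edgeR) in Yy1-/- and 0.22 ± 0.18 (adjusted p = 0.391) in Yy1-/- Smc3+/-, and without Yy1+/+ replicate 2 the first of them was 0.51 with an adjusted p of 0.0302. Gpx3, the secreted plasma form, was the lowest of the 33 per length and varied widely, from 3.41 to 7.95 CPM in Yy1-/- and from 0.441 to 8.41 CPM in Yy1-/- Smc3+/-, against 1.01 to 3.66 CPM in Yy1+/+. It was not called, with log2 fold changes of 1.08 ± 0.64 and 0.33 ± 0.67.

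The peroxiredoxins, thiol peroxidases that take their electrons mostly from thioredoxin, moved in opposite directions. Prdx1 and Prdx4 were called upward and Prdx2, Prdx3 and Prdx6 downward in Yy1-/-, and the same genes other than Prdx4 were called in Yy1-/- Smc3+/-. Prdx1, a cytosolic enzyme that lies on chromosome 4 from 116685544 to 116700822, stood at 1303, 835, 887 and 747 CPM in Yy1-/- and at 891, 801, 702 and 837 CPM in Yy1-/- Smc3+/-, against 389, 556, 425 and 496 CPM in Yy1+/+. The lowest mutant library of Prdx1 lay well above the highest of Yy1+/+. The fitted log2 fold change was 1.02 ± 0.18 (adjusted p = 0.000860 by edgeR) in Yy1-/- and 0.79 ± 0.18 (adjusted p = 0.00462) in Yy1-/- Smc3+/-.

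Prdx2, the other main cytosolic peroxiredoxin and an abundant protein of red blood cells, went the other way. It stood at 215, 168, 302 and 261 CPM in Yy1-/- and at 234, 215, 220.4 and 217 CPM in Yy1-/- Smc3+/-, against 388, 407, 325 and 390.1 CPM in Yy1+/+. All mutant libraries lay below Yy1+/+, and Yy1-/- replicate 3 came nearest. The model gave Prdx2 a log2 fold change of -0.67 ± 0.16 (adjusted p = 0.00527 by edgeR) in Yy1-/- and -0.77 ± 0.16 (adjusted p = 0.00293) in Yy1-/- Smc3+/-. Genes of the opposite strand, Junb and Rnaseh2a, overlap 11.5% of the exonic bases of Prdx2, and the library kit does not mark strand. The summed level of 12 erythroid markers also differed between the genotypes, at 115 to 903 CPM in Yy1-/- and 124 to 489 CPM in Yy1-/- Smc3+/-, against 1709 to 2616 CPM in Yy1+/+. No erythroid marker was at 0 in all libraries, and 3 of the 12 were called downward in Yy1-/- (18.8% of all genes) and 5 in Yy1-/- Smc3+/- (16.7% of all genes). The list was mixed. Car2 and Car1 made up most of the Yy1+/+ sum, with means of 1480 and 432 CPM. Hbb-bs, Hba-a1, Alas2 and Slc4a1, named after their values were seen, had positive log2 fold changes in Yy1-/- (2.90, 1.63, 3.11 and 3.22), none called. The part of erythroid cells in the fall of Prdx2 was not tested.

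Prdx3, the peroxiredoxin of mitochondria, stood at 76.0, 56.6, 97.3 and 93.3 CPM in Yy1-/- and at 56.2, 52.0, 87.8 and 61.9 CPM in Yy1-/- Smc3+/-, against 142, 133, 114 and 134 CPM in Yy1+/+. The groups did not overlap, and the 3 mutant libraries with the most Yy1 reads were the highest 3 of the 8. Its log2 fold change was -0.69 ± 0.19 (adjusted p = 0.0138 by edgeR) in Yy1-/- and -1.02 ± 0.19 (adjusted p = 0.00187) in Yy1-/- Smc3+/-. Prdx6, which uses glutathione and also has phospholipase activity, stood at 358, 262, 465 and 410.3 CPM in Yy1-/- and at 334, 291, 373 and 286 CPM in Yy1-/- Smc3+/-, against 560.1, 934, 497 and 594 CPM in Yy1+/+. Here too every mutant library lay below Yy1+/+, with the same 3 libraries as the highest mutant ones. Those libraries differed in markers as well. In Yy1-/- replicates 3 and 4 the monocyte and macrophage sums were 689 and 1067 CPM, against 6895 and 4684 CPM in replicates 1 and 2. Their erythroid sums were 903 and 464 CPM, against 115 and 160 CPM. Yy1-/- Smc3+/- replicate 3 had the highest neutrophil granule sum, 17157 CPM. Residual Yy1 and these marker contents cannot be told apart here. The log2 fold change of Prdx6 was -0.79 ± 0.21 (adjusted p = 0.0109) in Yy1-/- and -1.01 ± 0.21 (adjusted p = 0.00334) in Yy1-/- Smc3+/-.

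Prdx4, the peroxiredoxin of the endoplasmic reticulum, ran from 93.6 to 127 CPM in Yy1-/- and from 93.6 to 121 CPM in Yy1-/- Smc3+/-, against 53.4 to 103 CPM in Yy1+/+. Its ranges overlapped through Yy1+/+ replicate 2. The log2 fold change was 0.53 ± 0.18 (adjusted p = 0.0356 by edgeR) in Yy1-/- and 0.46 ± 0.18 (adjusted p = 0.0720) in Yy1-/- Smc3+/-. The call of Prdx4 in Yy1-/- was lost when any 1 of Yy1-/- replicates 1, 2 and 3, Yy1+/+ replicates 1, 3 and 4 or Yy1-/- Smc3+/- replicate 2 was left out, with adjusted p from 0.0578 to 0.115, and without Yy1+/+ replicate 2 it was called in Yy1-/- Smc3+/- too, at 0.63 with an adjusted p of 0.0146. Prdx5, found in mitochondria, peroxisomes and cytosol, and Srxn1, the sulfiredoxin that repairs overoxidised peroxiredoxins, were not called. Prdx5, with 19.1% of its exonic bases under Trmt112 on the other strand, had log2 fold changes of 0.17 ± 0.21 in Yy1-/- and -0.22 ± 0.21 in Yy1-/- Smc3+/-. Srxn1 ran from 12.3 to 36.8 CPM in Yy1-/- and from 12.8 to 19.5 CPM in Yy1-/- Smc3+/-, against 17.3 to 39.6 CPM in Yy1+/+.

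Within a library the ratio of 2 genes does not depend on depth. The pairs were picked after the values were seen and are given as a description with no test. Other pairs overlapped with Yy1+/+, such as Txnrd1 over Txnrd2, though for this pair in Yy1-/- Smc3+/- only. It was 6.52 to 8.26 in Yy1-/- and 6.04 to 15.6 in Yy1-/- Smc3+/-, against 3.77 to 6.45 in Yy1+/+. The CPM of Prdx1 over that of Prdx2 was 6.05, 4.96, 2.93 and 2.87 in Yy1-/- and 3.82, 3.73, 3.19 and 3.85 in Yy1-/- Smc3+/-, against 1.00, 1.37, 1.31 and 1.27 in Yy1+/+. Prdx1 over Cat was 6.26 to 9.10 in Yy1-/- and 5.88 to 6.84 in Yy1-/- Smc3+/-, against 2.05 to 2.49 in Yy1+/+. In both ratios every mutant library lay above every Yy1+/+ library. This was fixed in advance, because Prdx1 alone lay above Yy1+/+ and Prdx2 and Cat below it in every mutant library.

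**Figure D3:**
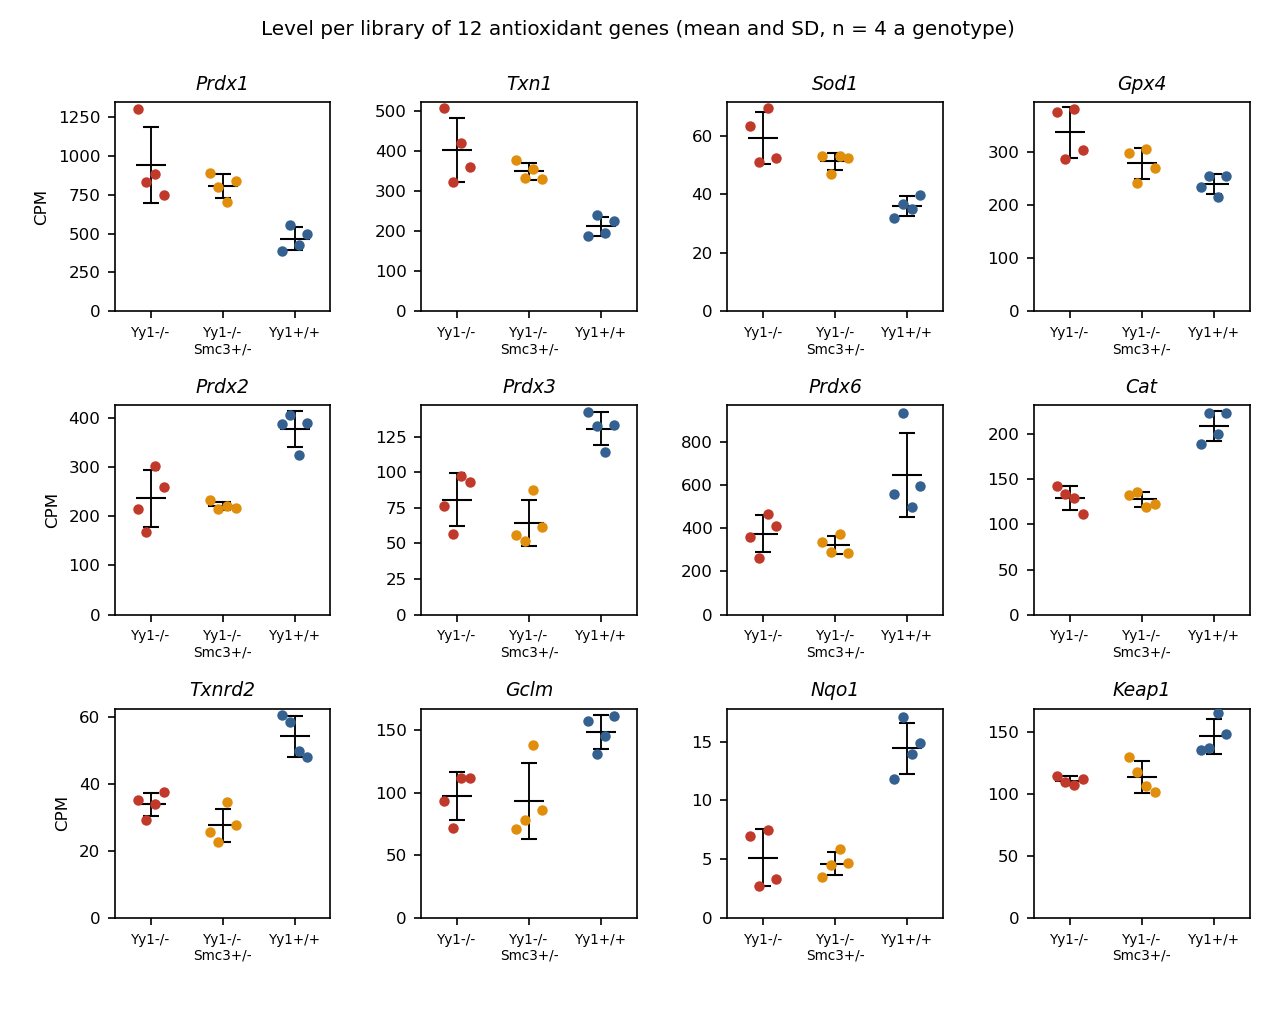
CPM of 12 antioxidant genes in each library, as points, with the mean and SD of the 4 libraries of a genotype. Prdx1, Txn1 and Sod1 lie higher in all 8 mutant libraries than in Yy1+/+, and Prdx2, Prdx3, Prdx6, Cat, Txnrd2, Nqo1 and Keap1 lie lower.

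Of the thioredoxin system, Txn1 rose and Txnrd2 fell in both mutant genotypes. Txn1 is the cytosolic thioredoxin, a small protein that reduces peroxiredoxins, and lies on chromosome 4 from 57943373 to 57956411. It stood at 505, 323, 419 and 360.3 CPM in Yy1-/- and at 376, 332, 355 and 329.8 CPM in Yy1-/- Smc3+/-, against 188, 239, 196 and 224 CPM in Yy1+/+. No mutant library reached down to the Yy1+/+ range. For Txn1 the log2 fold change was 0.93 ± 0.14 (adjusted p = 0.000401 by edgeR) in Yy1-/- and 0.72 ± 0.14 (adjusted p = 0.00238) in Yy1-/- Smc3+/-, and it was called under every alternative tried.

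Txnrd2, the reductase that recharges mitochondrial thioredoxin, stood at 35.2, 29.2, 34.0 and 37.5 CPM in Yy1-/- and at 25.7, 22.7, 34.5 and 27.9 CPM in Yy1-/- Smc3+/-, against 60.6, 58.5, 50.1 and 48.2 CPM in Yy1+/+. The groups did not overlap. Txnrd2 had a log2 fold change of -0.68 ± 0.16 (adjusted p = 0.00497 by edgeR) in Yy1-/- and -0.97 ± 0.16 (adjusted p = 0.000621) in Yy1-/- Smc3+/-. Its cytosolic counterpart Txnrd1 was not called, at 222 to 309.9 CPM in Yy1-/- and 209 to 355 CPM in Yy1-/- Smc3+/-, against 221 to 323 CPM in Yy1+/+, nor was the mitochondrial thioredoxin Txn2. The log2 fold change of Txnrd1 in Yy1-/- was 0.03 with a 95% interval from -0.35 to 0.42, and that of Txn2 was 0.19 with an interval from -0.13 to 0.52. Glrx, the cytosolic glutaredoxin that removes glutathione from proteins, had log2 fold changes of 0.20 ± 0.19 in Yy1-/- and -0.30 ± 0.19 in Yy1-/- Smc3+/-, neither of them called. Txn1 over Txn2 was 1.59 to 2.17 in Yy1-/- and 1.64 to 1.68 in Yy1-/- Smc3+/-, against 0.979 to 1.23 in Yy1+/+.

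**Figure D4:**
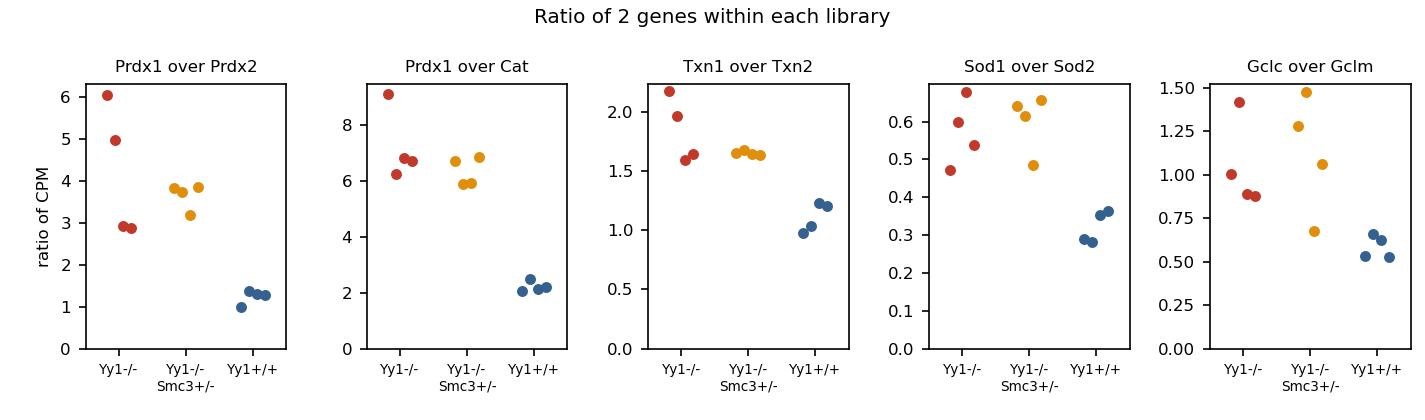
Ratio of the CPM of 2 genes within each library, 1 point a library, for 5 pairs picked after the values were seen from 11 computed, of which 3 overlapped between genotypes. Prdx1 over Prdx2, Prdx1 over Cat, Txn1 over Txn2, Sod1 over Sod2 and Gclc over Gclm lie higher in all 8 mutant libraries than in the 4 of Yy1+/+. For Prdx1 over Prdx2 and Prdx1 over Cat this follows from the levels of the single genes.

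Of the 6 genes of glutathione synthesis, recycling and transfer, Gsr and Gstp1 rose and Gclm fell in Yy1-/-, while in Yy1-/- Smc3+/- Gstp1 rose and Gclm fell. Gclc and Gclm encode the catalytic and the modifier subunit of glutamate-cysteine ligase, which catalyses the rate-limiting step of glutathione synthesis. Gclm stood at 93.3, 71.8, 112 and 111 CPM in Yy1-/- and at 71.2, 78.2, 138 and 86.0 CPM in Yy1-/- Smc3+/-, against 157, 131, 145 and 161 CPM in Yy1+/+. Yy1-/- Smc3+/- replicate 3 reached into the Yy1+/+ range, and the other mutant libraries did not. The model gave Gclm a log2 fold change of -0.61 ± 0.20 (adjusted p = 0.0325 by edgeR) in Yy1-/- and -0.67 ± 0.20 (adjusted p = 0.0254) in Yy1-/- Smc3+/-. The first call of Gclm was lost without Yy1-/- replicate 1 or 2 or Yy1+/+ replicate 1, 3 or 4 (adjusted p from 0.0555 to 0.0856), and the second without Yy1-/- Smc3+/- replicate 1, 2 or 4 or Yy1+/+ replicate 1 or 4 (adjusted p from 0.0560 to 0.0735).

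Gclc differed little, at 93.7 to 102 CPM in Yy1-/- and 91.2 to 115 CPM in Yy1-/- Smc3+/-, against 83.7 to 90.8 CPM in Yy1+/+. The ranges of Gclc did not overlap, yet its log2 fold changes of 0.19 ± 0.11 and 0.18 ± 0.11 were not called (edgeR adjusted p = 0.210 and 0.243). Gclc over Gclm was 0.879 to 1.42 in Yy1-/- and 0.677 to 1.48 in Yy1-/- Smc3+/-, against 0.527 to 0.658 in Yy1+/+. Gss, which completes glutathione and shares 15.4% of its exonic bases with genes on the other strand, was not called, with log2 fold changes of -0.23 ± 0.19 and -0.30 ± 0.19.

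Gsr encodes glutathione reductase, which restores glutathione with NADPH. It stood at 438, 333, 321 and 384 CPM in Yy1-/- and at 200.2, 185, 481 and 281 CPM in Yy1-/- Smc3+/-, against 198, 228, 142 and 146 CPM in Yy1+/+. All Yy1-/- libraries were above Yy1+/+, while the Yy1-/- Smc3+/- libraries ranged from within Yy1+/+ to the highest of all 12. The log2 fold change of Gsr was 1.05 ± 0.27 (adjusted p = 0.00926 by edgeR) in Yy1-/- and 0.68 ± 0.27 (adjusted p = 0.0723) in Yy1-/- Smc3+/-, and the second was called without Yy1-/- Smc3+/- replicate 1 (0.82, adjusted p = 0.0471) or replicate 2 (0.80, adjusted p = 0.0445).

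Gstp1 and Gstm1 encode glutathione transferases of the pi and mu classes. Gstp1 stood at 335, 242, 359.9 and 299 CPM in Yy1-/- and at 308, 258, 293 and 288 CPM in Yy1-/- Smc3+/-, against 216, 233, 194 and 227 CPM in Yy1+/+. The mutant libraries were all above Yy1+/+ by a small margin, and the expected counts of Gstp1 were fractional in all 12 libraries, so reads are shared with a related gene. The fitted log2 fold change was 0.51 ± 0.13 (adjusted p = 0.00893 by edgeR) in Yy1-/- and 0.40 ± 0.13 (adjusted p = 0.0345) in Yy1-/- Smc3+/-. The second call of Gstp1 was lost without any 1 of Yy1-/- Smc3+/- replicates 1 to 4, Yy1+/+ replicates 1, 3 and 4 or Yy1-/- replicates 1 and 4 (adjusted p from 0.0533 to 0.0943), and both were lost on log2(TPM + 1).

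Gstm1 stood at 43.2, 45.8, 109.7 and 130.0 CPM in Yy1-/- and at 46.6, 38.0, 508 and 38.3 CPM in Yy1-/- Smc3+/-, against 263, 459, 184 and 238 CPM in Yy1+/+. The Yy1-/- libraries all lay below Yy1+/+, and so did the Yy1-/- Smc3+/- libraries other than replicate 3, which held the highest level of all 12. The log2 fold changes of Gstm1 were -1.80 ± 0.78 (adjusted p = 0.0874 by edgeR) in Yy1-/- and -0.86 ± 0.76 (adjusted p = 0.422) in Yy1-/- Smc3+/-, and neither was called. Without Yy1-/- Smc3+/- replicate 3 the values of Gstm1 were -1.80 (adjusted p = 0.00326) and -2.80 (adjusted p = 0.000864). That library also had the highest summed level of 12 neutrophil granule markers, 17157 CPM, beside 1903 to 2637 CPM in the other 3 of its genotype, 4430.5 to 7395 CPM in Yy1-/- and 2699 to 10611 CPM in Yy1+/+, and the part of those markers in the level of Gstm1 was not tested.

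In the NRF2 system the transcript of the factor itself, Nfe2l2, was not called, while its inhibitor and a classical target fell. Nfe2l2 ran from 114 to 158 CPM in Yy1-/- and from 107 to 158 CPM in Yy1-/- Smc3+/-, against 124 to 185 CPM in Yy1+/+, with log2 fold changes of -0.12 (95% interval -0.48 to 0.24) and -0.26 (95% interval -0.62 to 0.10). Keap1, the adaptor that marks NRF2 for destruction, stood at 115, 109, 107 and 112 CPM in Yy1-/- and at 129.5, 118, 106 and 101 CPM in Yy1-/- Smc3+/-, against 136, 137, 166 and 148 CPM in Yy1+/+. The mutant libraries of Keap1 lay below Yy1+/+ with a narrow gap, and Gm16754 on the opposite strand overlaps 10.9% of its exonic bases. Its log2 fold change was -0.40 ± 0.11 (adjusted p = 0.0153 by edgeR) in Yy1-/- and -0.37 ± 0.11 (adjusted p = 0.0289) in Yy1-/- Smc3+/-. The first call of Keap1 was lost without Yy1+/+ replicate 3 (adjusted p = 0.0504), and the second without Yy1-/- Smc3+/- replicate 3 or 4 or Yy1+/+ replicate 3 or 4 (adjusted p from 0.0684 to 0.0961).

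Nqo1, the NRF2 target that reduces quinones with NADPH or NADH, lies on chromosome 8 from 107388225 to 107403206. It stood at 6.97, 2.75, 7.52 and 3.32 CPM in Yy1-/- and at 3.48, 4.51, 5.87 and 4.64 CPM in Yy1-/- Smc3+/-, against 11.8, 17.1, 13.96 and 14.9 CPM in Yy1+/+. All 8 mutant libraries were below all of Yy1+/+. For Nqo1 the log2 fold change was -1.50 ± 0.31 (adjusted p = 0.00279 by edgeR) in Yy1-/- and -1.65 ± 0.32 (adjusted p = 0.00203) in Yy1-/- Smc3+/-, and both calls held under every alternative tried.

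Hmox1 encodes the inducible heme oxygenase, which breaks down heme and is abundant in macrophages that clear red cells. It stood at 221, 187, 6.11 and 17.1 CPM in Yy1-/- and at 32.8, 65.1, 71.8 and 4.72 CPM in Yy1-/- Smc3+/-, against 11.7, 8.35, 7.82 and 3.04 CPM in Yy1+/+. Yy1-/- replicates 1 and 2 were far above all others, and Yy1-/- replicate 3 and Yy1-/- Smc3+/- replicate 4 lay inside the Yy1+/+ range. Hmox1 had a log2 fold change of 3.79 ± 1.02 (adjusted p = 0.0117 by edgeR) in Yy1-/- and 2.49 ± 0.99 (adjusted p = 0.0739) in Yy1-/- Smc3+/-. Without Yy1-/- replicates 1 and 2 the first value was 0.54 (adjusted p = 0.675), without replicate 1 alone it was 3.14 (adjusted p = 0.0371), and the second was called without Yy1-/- Smc3+/- replicate 4 (2.86, adjusted p = 0.0446) or Yy1-/- replicate 3 (2.45, adjusted p = 0.0389). The 2 highest libraries of Hmox1 are the 2 with the highest monocyte and macrophage marker sums, 6895 and 4684 CPM.

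The phagocyte NADPH oxidase is built from a membrane part, encoded by Cybb and Cyba, and cytosolic parts, encoded among others by Ncf1, Ncf4 and Rac2, that join it on activation. In Yy1-/- Cybb, Cyba, Ncf1 and Ncf4 rose, and in Yy1-/- Smc3+/- Cyba, Ncf1 and Ncf4 rose. Rac2, the haematopoietic Rac GTPase, was not called in either. Cybb, the catalytic subunit, lies on chromosome X from 9435252 to 9487771. It stood at 313, 308, 47.5 and 72.9 CPM in Yy1-/- and at 67.4, 92.7, 129 and 81.4 CPM in Yy1-/- Smc3+/-, against 71.6, 26.1, 12.7 and 17.6 CPM in Yy1+/+. Yy1-/- replicates 1 and 2 stood highest, and Yy1+/+ replicate 1 overlapped with the lower mutant libraries. The model gave Cybb a log2 fold change of 2.53 ± 0.64 (adjusted p = 0.00792 by edgeR) in Yy1-/- and 1.53 ± 0.62 (adjusted p = 0.0791) in Yy1-/- Smc3+/-. Without Yy1+/+ replicate 1 these values of Cybb were 3.29 (adjusted p = 0.00292) and 2.29 (adjusted p = 0.0179).

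Cyba, the stabilising partner of the catalytic subunit, lies on chromosome 8 from 122424776 to 122432930. It stood at 533, 377, 214 and 203 CPM in Yy1-/- and at 251, 219, 213 and 189 CPM in Yy1-/- Smc3+/-, against 123, 168, 89.5 and 109 CPM in Yy1+/+. The mutant libraries were all above Yy1+/+. The log2 fold change of Cyba was 1.44 ± 0.29 (adjusted p = 0.00203 by edgeR) in Yy1-/- and 0.83 ± 0.28 (adjusted p = 0.0406) in Yy1-/- Smc3+/-. The second call of Cyba was lost without any 1 of Yy1-/- Smc3+/- replicates 1 to 4 or Yy1+/+ replicates 1, 3 and 4, with adjusted p from 0.0563 to 0.107.

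Ncf1 is the organiser subunit that brings the cytosolic parts to the membrane. It stood at 222, 235, 149 and 166 CPM in Yy1-/- and at 129, 149, 179 and 171 CPM in Yy1-/- Smc3+/-, against 125, 67.5, 70.9 and 85.5 CPM in Yy1+/+. Gtf2ird2 on the opposite strand covers 11.1% of its exonic bases. The groups did not overlap, though Yy1+/+ replicate 1 came close to the lowest mutant library. For Ncf1 the log2 fold change was 1.14 ± 0.21 (adjusted p = 0.00131 by edgeR) in Yy1-/- and 0.85 ± 0.21 (adjusted p = 0.00918) in Yy1-/- Smc3+/-, and both calls held under every alternative tried. Ncf4, a regulatory subunit that binds a membrane phosphoinositide, stood at 183, 139.8, 115 and 110.1 CPM in Yy1-/- and at 111, 98.8, 121 and 105 CPM in Yy1-/- Smc3+/-, against 61.0, 95.8, 44.6 and 50.1 CPM in Yy1+/+. Its highest Yy1+/+ library, replicate 2, lay just below the lowest mutant library. Ncf4 had a log2 fold change of 1.12 ± 0.23 (adjusted p = 0.00234 by edgeR) in Yy1-/- and 0.79 ± 0.23 (adjusted p = 0.0187) in Yy1-/- Smc3+/-, and the second call was lost without Yy1+/+ replicate 3 (0.66, adjusted p = 0.0537) or replicate 4 (0.70, adjusted p = 0.0599).

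Rac2 ran from 592 to 651 CPM in Yy1-/- and from 534 to 707 CPM in Yy1-/- Smc3+/-, against 462 to 582 CPM in Yy1+/+. The log2 fold changes of Rac2 were 0.25 (95% interval -0.01 to 0.50) and 0.19 (95% interval -0.07 to 0.44). Set against Rac2 within each library, Cyba was 0.329 to 0.899 in Yy1-/- and 0.301 to 0.422 in Yy1-/- Smc3+/-, against 0.194 to 0.289 in Yy1+/+. Ncf4 over Rac2 was 0.177 to 0.309 in Yy1-/- and 0.172 to 0.192 in Yy1-/- Smc3+/-, against 0.0951 to 0.164 in Yy1+/+, so both ratios stood apart. Ncf1 over Rac2 overlapped between genotypes, at 0.228 to 0.374 in Yy1-/- and 0.217 to 0.313 in Yy1-/- Smc3+/-, against 0.116 to 0.241 in Yy1+/+. Cybb over Rac2 overlapped as well, at 0.0729 to 0.528 in Yy1-/- and 0.114 to 0.182 in Yy1-/- Smc3+/-, against 0.0275 to 0.137 in Yy1+/+.

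The 12 monocyte and macrophage markers did not all move with these genes. Of the 12, 10 were called upward in Yy1-/- (16.3% of all genes) and 6 in Yy1-/- Smc3+/- (13.1% of all genes), and none was at 0 in all libraries. Their sum overlapped with Yy1+/+ (598 to 1442 CPM) in Yy1-/- Smc3+/- (886 to 1647 CPM) and in Yy1-/- replicates 3 and 4 (689 and 1067 CPM). The sum is led by Lyz2 and does not hold the single markers equal. For 7 of the 12 all Yy1-/- Smc3+/- libraries lay above Yy1+/+, against 32.2% of all genes with no overlap in either direction. Ms4a6c ran from 111 to 551 CPM in Yy1-/- and from 97.9 to 129.9 CPM in Yy1-/- Smc3+/-, against 25.3 to 37.6 CPM in Yy1+/+. Ly6c2, named after its values were seen, had log2 fold changes of -1.08 in Yy1-/- and -0.91 in Yy1-/- Smc3+/- and was not called. Csf1r, the receptor of the macrophage growth factor, ran from 43.2 to 534 CPM in Yy1-/- and from 63.3 to 199 CPM in Yy1-/- Smc3+/-, against 22.3 to 49.3 CPM in Yy1+/+, and Lyz2, the most abundant of the 12, ran from 177 to 4248 CPM in Yy1-/- and from 267 to 729.6 CPM in Yy1-/- Smc3+/-, against 342 to 821 CPM in Yy1+/+, and was not called. Of 12 neutrophil granule markers, 3 were called upward and none downward in each mutant genotype, Ctsg, Mmp8 and Mmp9, the last pair named after their values were seen. Ctsg, a granule protease, ran from 745 to 1177 CPM in Yy1-/- and from 448 to 1649 CPM in Yy1-/- Smc3+/-, against 91.6 to 326 CPM in Yy1+/+. Mmp8 and Mmp9, neutrophil proteases, had log2 fold changes of 5.72 ± 1.11 and 5.31 ± 1.05 in Yy1-/- and of 4.26 ± 1.07 and 3.87 ± 1.01 in Yy1-/- Smc3+/-. Mpo and Elane, the other abundant markers of that list, were not called, at -1.07 and -0.50 in Yy1-/- and -0.44 and 0.17 in Yy1-/- Smc3+/-. Without Yy1-/- replicates 1 and 2, a choice made after the data were seen, 13 of the 33 genes were called in Yy1-/-, 8 upward and 5 downward, beside 4045 of all genes, against 5854 with all 12 libraries. Cyba (0.74, adjusted p = 0.0259), Ncf1 (0.82, adjusted p = 0.0274) and Ncf4 (0.81, adjusted p = 0.0366) stayed called, and Cybb (0.87, adjusted p = 0.267) and Hmox1 (0.54, adjusted p = 0.675) did not. Gsr (0.95, adjusted p = 0.0627), Prdx3 (-0.49, adjusted p = 0.107), Prdx4 (0.49, adjusted p = 0.156), Prdx6 (-0.59, adjusted p = 0.0856) and Gclm (-0.44, adjusted p = 0.204) were also no longer called. The part of monocytes, macrophages or neutrophils in the level of any of these genes was not tested.

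**Figure D5:**
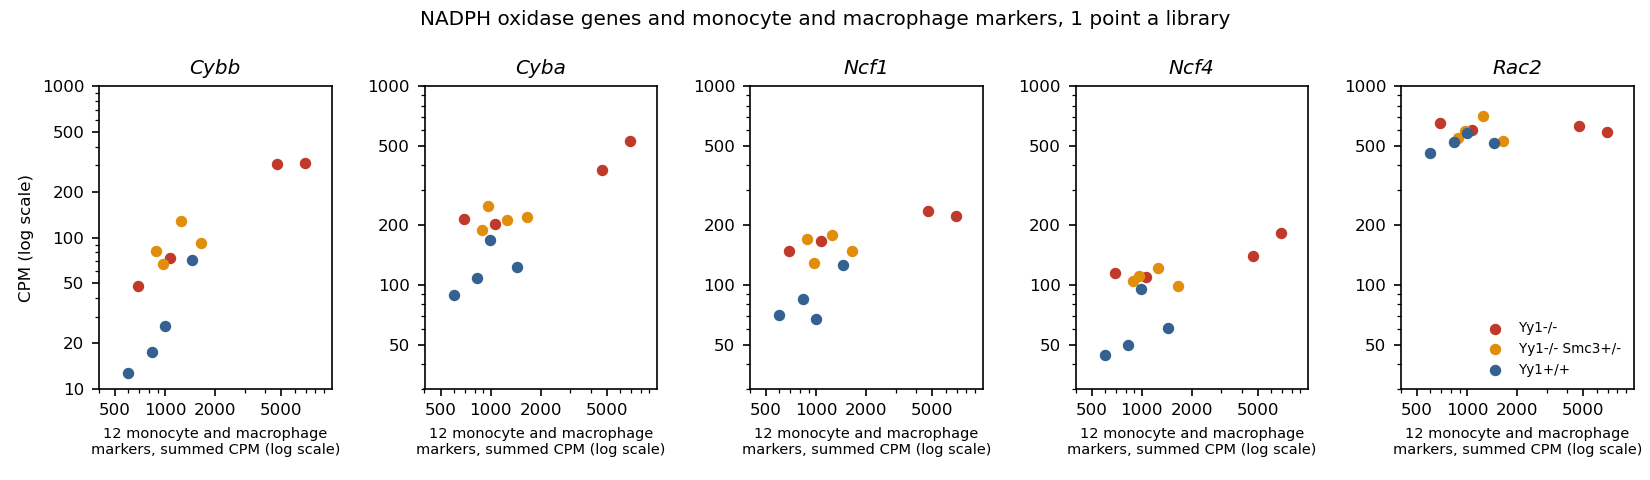
CPM of 5 NADPH oxidase genes (log scale) against the summed CPM of 12 monocyte and macrophage markers (log scale), 1 point a library, coloured by genotype. The Yy1-/- libraries at 6895 and 4684 CPM of markers have the highest Cybb, Cyba, Ncf1 and Ncf4. Among libraries with marker sums up to 1647 CPM the mutant libraries lie above Yy1+/+ for Cyba, Ncf1 and Ncf4. A like sum does not mean like levels of the single markers. For 7 of the 12 markers all Yy1-/- Smc3+/- libraries lay above Yy1+/+, against 32.2% of all genes with no overlap in either direction.

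The libraries labelled Yy1-/- Smc3+/- were then compared with Yy1-/- directly, the contrast that tests whether the 2 mutant genotypes differ. None of the 33 genes was called by edgeR or DESeq2, and 2 had an unadjusted edgeR p under 0.05, Glrx and Cyba. Across all genes edgeR called 6 (0.036%) and DESeq2 called 75, and 1076 genes had an unadjusted edgeR p under 0.05. For none of the 33 did the libraries of the 2 genotypes stand apart without overlap, against 2.01% of all genes. The median log2 difference of the 33 was -0.21, beside 0.0 for all genes. Glrx stood at 106, 97.5, 130.3 and 95.5 CPM in Yy1-/- Smc3+/-, against 194, 176, 127 and 112 CPM in Yy1-/-, a log2 difference of -0.50 ± 0.19 (unadjusted p = 0.0195, edgeR adjusted p = 0.756) with overlapping libraries. Cyba had a log2 difference of -0.61 with a 95% interval from -1.21 to -0.0007. Hmox1 and Cybb, with the widest spread, had intervals from -3.28 to 0.66 and from -2.31 to 0.30. For Cat the interval ran from -0.26 to 0.23, for Gclc from -0.25 to 0.23, for Keap1 from -0.21 to 0.29 and for Rac2 from -0.31 to 0.20, so larger differences than these lie outside the intervals. Without the 3 libraries that kept the most Yy1 reads, Glrx was called at -0.90 (adjusted p = 0.0377), beside 311 genes over all, 34 higher and 277 lower in Yy1-/- Smc3+/-. This leaves Yy1-/- replicates 1 and 2 alone in their genotype, the libraries with the most monocyte marker reads, so residual Yy1 and monocyte marker content cannot be told apart there. In that setting 17 of the 33 genes were called in Yy1-/- against Yy1+/+, 9 upward and 8 downward, beside 4855 of all genes.

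A wider list of 128 redox genes, of which 114 were tested, sets these members in their pathway. It was chosen with earlier results of these data known. In Yy1-/- 25 were called upward and 23 downward, and in Yy1-/- Smc3+/- 16 upward and 29 downward, with medians of 0.13 and -0.06. That is 42.1% of those tested in Yy1-/- and 39.5% in Yy1-/- Smc3+/-, against 35.2% and 29.9% of all genes, not far from the background. In Yy1-/- Smc3+/- against Yy1-/- none was called, and 15 had an unadjusted p under 0.05. The part of the list drawn up for NADPH supply had 16 tested genes, Mthfd2 and Me2 among them. In Yy1-/- 6 of the 16 were upward and 3 downward, against 16.3% and 18.8% of all genes. Which cofactor each enzyme uses, and the supply of NADPH itself, was not tested. Mthfd2, a mitochondrial folate enzyme, was at 106 ± 36.4 CPM in Yy1-/- and 95.2 ± 3.36 in Yy1-/- Smc3+/-, against 27.6 ± 5.74 in Yy1+/+ (SD, n = 4 each), log2 fold changes of 1.94 ± 0.22 (adjusted p = 4.3e-05 by edgeR) and 1.78 ± 0.22 (adjusted p = 8.3e-05). Me2, the mitochondrial malic enzyme, was at 173 ± 13.1 CPM in Yy1-/- and 163 ± 8.05 in Yy1-/- Smc3+/-, against 104 ± 8.55 in Yy1+/+. Both rose in both mutant genotypes. Akr1a1, an aldehyde reductase that uses NADPH, rose as well, with 846 ± 169 CPM in Yy1-/- and 691 ± 16.2 in Yy1-/- Smc3+/-, against 401 ± 24.2 in Yy1+/+. Txndc17, a thioredoxin-like protein, stood at 104 ± 30.5 CPM in Yy1-/-, against 56.6 ± 2.42 CPM in Yy1+/+, a log2 fold change of 0.88 ± 0.17 (adjusted p = 0.00186 by edgeR). Txndc17 was called upward in Yy1-/- Smc3+/- too, but less firmly. That call was lost without any 1 library of Yy1-/- Smc3+/- or of Yy1+/+ (edgeR adjusted p from 0.0659 to 0.0998). On log2(TPM + 1) its value there was 0.30 (limma adjusted p = 0.105).

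Among those called downward in both mutant genotypes were transferases and a relative of NRF2. Gsta4, a glutathione transferase that clears lipid aldehydes, was at 1.05 ± 0.674 CPM in Yy1-/- and 0.889 ± 0.394 in Yy1-/- Smc3+/-, against 18.6 ± 3.32 in Yy1+/+, log2 fold changes of -4.19 ± 0.44 (adjusted p = 3.3e-05 by edgeR) and -4.38 ± 0.45 (adjusted p = 3e-05). Gstm5, a mu-class transferase, was at 9.11 ± 3.09 CPM in Yy1-/- and 8.45 ± 2.49 in Yy1-/- Smc3+/-, against 46.7 ± 7.03 in Yy1+/+. Selenon, a selenoprotein of the endoplasmic reticulum, was at 42.5 ± 9.90 CPM in Yy1-/- and 49.2 ± 4.08 in Yy1-/- Smc3+/-, against 139.8 ± 9.46 in Yy1+/+. These transferases and Selenon fell in every alternative tried. Msrb2, a mitochondrial methionine sulfoxide reductase, was at 18.1 ± 6.09 CPM in Yy1-/- and 15.2 ± 0.635 in Yy1-/- Smc3+/-, against 53.9 ± 5.08 in Yy1+/+. Nfe2, an erythroid and megakaryocytic relative of NRF2, was at 241 ± 27.2 CPM in Yy1-/- and 246 ± 34.8 in Yy1-/- Smc3+/-, against 530.0 ± 58.5 in Yy1+/+, and the erythroid and megakaryocyte marker sums were lower in the mutant libraries as well, the megakaryocyte sum at 170.2 to 211 CPM in Yy1-/- and 96.2 to 229 CPM in Yy1-/- Smc3+/-, against 648 to 909 CPM in Yy1+/+. The erythroid list was mixed, as given with Prdx2 above, and the part of those cells in the fall of Nfe2 was not tested. Gstp3, a pi-class transferase, rose to 3.02 ± 1.05 CPM in Yy1-/- and 3.30 ± 1.18 in Yy1-/- Smc3+/-, against 0.742 ± 0.303 in Yy1+/+, and its call in Yy1-/- was lost without the 3 libraries with the most Yy1 reads (1.63, adjusted p = 0.0534).

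Among other NADPH oxidase genes of the wider list, Rac1 and Cybc1 were called upward in Yy1-/-. These and Nox4 are named after their values were seen. Nox4, a homologue of Cybb known from kidney and vessels, was listed at 0 in all 8 mutant libraries, against 0.383 to 2.20 CPM in Yy1+/+. It passed the filter through the Yy1+/+ libraries alone. Its downward call in both mutant genotypes was therefore the only call it could get, and no conclusion is drawn from it. Rac1 is the widely expressed Rac GTPase, and Cybc1 helps to assemble the membrane part of the oxidase. Rac1 and Cybc1 had log2 fold changes of 0.35 ± 0.11 and 0.40 ± 0.14 in Yy1-/-. The call of Rac1 was lost without Yy1-/- replicate 1, 2 or 3 or Yy1+/+ replicate 1 or 3 (adjusted p from 0.0553 to 0.0930), and that of Cybc1 without Yy1-/- replicate 1, 2 or 3, Yy1+/+ replicate 2 or 3 or Yy1-/- Smc3+/- replicate 1, 2 or 4 (adjusted p from 0.0505 to 0.140). On log2(TPM + 1) Rac1 was at 0.04 (adjusted p = 0.827) and Cybc1 at 0.15 (adjusted p = 0.523), and without Yy1-/- replicates 1 and 2 they were at 0.18 (adjusted p = 0.296) and 0.22 (adjusted p = 0.344).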

How the data were processed

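Per the labels' protocols, RNeasy Micro columns gave the RNA of sorted LSK cells, and SMART-Seq v4 the libraries, which does not mark strand. Per the submitters' processing notes, STAR 2.5.2b and RSEM 1.3.0 were used with build mm10. The authors deposited 1 RSEM gene table a library. Per the file headers, its deposited expected count is an estimated count that RSEM made by dividing shared reads between genes, without scaling for depth or length. Of these, 6.4% to 7.1% of values lay more than 1e-06 from a whole number. The deposited TPM values are scaled for length and depth and serve here for levels between genes and for 2 alternatives. Symbols and positions come from GENCODE M21 (GRCm38). FPKM was not used.

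Expected counts were rounded and tested with the quasi-likelihood F test of edgeR 4.0.16 in R 4.3.3, after its filter (minimum count 10, minimum total 15, 16649 genes kept) and TMM scaling. All 12 libraries entered 1 model with a term for each genotype. P-values were Benjamini-Hochberg adjusted over all genes tested, with a threshold of 0.05, and intervals are at 95%. The script was tested on simulated data. Alternatives were DESeq2 1.42.0, its size factors, other filters, limma 3.58.1 on log2(TPM + 1) and log2(TPM + 0.1), 2 genotypes only, each library left out, the 3 mutant libraries with the most Yy1 reads left out and, chosen after seeing the data, the older form of the edgeR fit and Yy1-/- replicates 1 and 2 left out.

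The 33 genes, the wider list and the marker lists were chosen with earlier results of these data known. All 33 genes are named. Of the wider list, up to 4 called genes a direction with the smallest p in each comparison with Yy1+/+ are named. Of marker lists, totals and the genes with the highest mean are given.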

Additional observations from a re-analysis of the deposited data

Results flagged for a closer look

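In 99 groups of 4 libraries (33 genes in 3 genotypes), 4 had a library farther from its nearest neighbour than Dixon's 95% limit allows. Chance flags about 1 in 20 such groups. Gstm1 stood at 508 CPM in Yy1-/- Smc3+/- replicate 3, and the other libraries of that genotype lay between 38.0 and 46.6 CPM. Gclc stood at 115 CPM in Yy1-/- Smc3+/- replicate 2, above 91.2 to 93.5 CPM in the others. Sod1 in that same library was the lowest of its genotype at 46.9 CPM, below 52.2 to 53.1 CPM. Gss stood at 61.1 CPM in Yy1+/+ replicate 2, above 40.2 to 42.1 CPM in the others, and this library was the deepest of the series.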

How the results depend on the processing

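Over 22 alternatives, 1990 of 2178 log2 fold changes of the 33 genes kept their direction and their side of the threshold, 73 calls were lost and 33 gained, and 82 values changed sign while called in neither. Of the 1990, 677 came from Yy1-/- Smc3+/- against Yy1-/-, where none of the 33 was called to begin with, so the pooled number overstates how firm the calls are. The lost calls were 34 in Yy1-/- and 39 in Yy1-/- Smc3+/-, each against Yy1+/+. No called value changed sign. In Yy1-/-, 10 of 20 calls held under every alternative (Sod1, Cat, Prdx1, Prdx2, Txn1, Txnrd2, Nqo1, Cyba, Ncf1 and Ncf4), and in Yy1-/- Smc3+/- 9 of 15 (Cat, Prdx1, Prdx2, Prdx3, Prdx6, Txn1, Txnrd2, Nqo1 and Ncf1). Leaving out each library in turn gave 17 to 21 genes in Yy1-/- (11 to 13 upward, 6 to 9 downward), beside 4910 to 6027 of all genes. In Yy1-/- Smc3+/- it gave 10 to 16 (4 to 8 upward, 6 to 9 downward), beside 3835 to 5273 of all genes. The 4 upward came without Yy1+/+ replicate 3 or 4, where 1765 and 1591 of all genes were upward, against 2189 with all libraries. Without a filter on low counts 4 genes were upward in Yy1-/- Smc3+/-, beside 1591 of all genes, in a fit that adjusts over more genes. Without Yy1-/- replicates 1 and 2, 13 genes were called in Yy1-/-, 5 of them downward, beside 4045 of all genes, from fewer libraries. Between the mutant genotypes DESeq2 called 75 genes, and without the 3 libraries with the most Yy1 reads edgeR called 311, with 1 of the 33, downward. The cause was not tested. On log2(TPM + 1) the calls of Gpx4, Gstp1, Prdx4 and Hmox1 in Yy1-/- were lost, and Gss (-0.46, adjusted p = 0.0354) and Gstm1 (-2.15, adjusted p = 0.0309) were called downward there. Upward counts of the wider list ran from 14 to 27 in Yy1-/- and from 9 to 19 in Yy1-/- Smc3+/-. Those of all genes ran from 1445 to 2935 and from 1299 to 2414. No paired analysis was possible because replicate numbers follow accession order and pair no libraries. Nqo1 and Gpx3, with under 20 CPM in every library, carry the least depth.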
